A study of Mus musculus with 8 samples.

Results

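Testis RNA of domesticus and of musculus house mice was compared on 4 of the 8 arrays of the series, 2 for each group. The groups take their names from the word that follows Mus musculus in the sample titles, and the members are all arrays with the title words domesticus or musculus. The series as a whole holds 4 groups of 2 arrays, the other two being castaneus and ssp, and all of them carry testis total RNA on an Affymetrix expression array. The labels call both arrays of a group technical replicates of 1 another and give no strain, age, treatment or number of animals, and what ssp stands for is not explained. The p-values below therefore weigh a difference only against the spread between technical replicate arrays. Each difference is one in array signal between these RNA samples, not between populations.

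Domesticus is the western European house mouse and musculus the eastern one. They meet in a narrow hybrid zone across Europe, and crosses between them can give sterile males, which is why the testis is a much studied tissue in this pair. The adult testis is built of seminiferous tubules, in which Sertoli cells nurse spermatogonia, spermatocytes and spermatids. Between the tubules lie Leydig cells, which turn cholesterol into testosterone, together with blood vessels and resident macrophages. Bulk RNA mixes all of these cells, so that fewer cells of a type and less RNA per cell cannot be told apart in any value below.

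The arrays held 12422 probe sets, and 8874 of them passed a filter on dim signals and were tested. Each probe set joins short probes against 1 stretch of a transcript and reports only that stretch. The probes were not set against sequence differences between the mice. A fold is therefore one of array signal, and the part of RNA amount in it was not tested. Values are deposited intensities in arbitrary units, with everything below 18.7, the 10th percentile, raised to that floor. A fold compares the geometric mean of 1 pair of arrays with that of the other, and where the lower group sat at the floor on either array the fold is a lower bound, given with the words "at least". A probe set was called where limma's Benjamini-Hochberg adjusted p was under 0.05 and the difference was at least 2-fold.

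Called were 66 probe sets, 0.744% of those tested, of which 38 (0.428%) were higher in domesticus and 28 (0.316%) in musculus. They stood for 60 genes with a single symbol, 35 higher in domesticus and 25 higher in musculus, and 6 probe sets with several symbols or none. In all 66 the arrays of the groups did not overlap. By that measure alone the count was larger: 1135 probe sets (12.8%) had groups that did not overlap and lay at least 2-fold apart. That count was not corrected for chance. Replicate arrays themselves lay within 2-fold of each other in only 84.3% of probe sets in domesticus and 82.8% in musculus. Called differences ran from 3.58-fold upward, with standard errors of 0.22 to 0.50 on the log2 scale, and 1082 probe sets had an unadjusted p under 0.05 in limma. The count rests on each of the 4 arrays. Without domesticus replicate 1, domesticus replicate 2 or musculus replicate 2 limma called 0 probe sets, with 830, 772 and 929 at an unadjusted p under 0.05. Without musculus replicate 1 it called 5, and without castaneus replicate 1 or 2, which only inform the spread, 12 and 16. Every tested probe set of the 66 kept its direction in each of these fits, which was fixed in advance because their groups did not overlap.

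**Figure D1:**
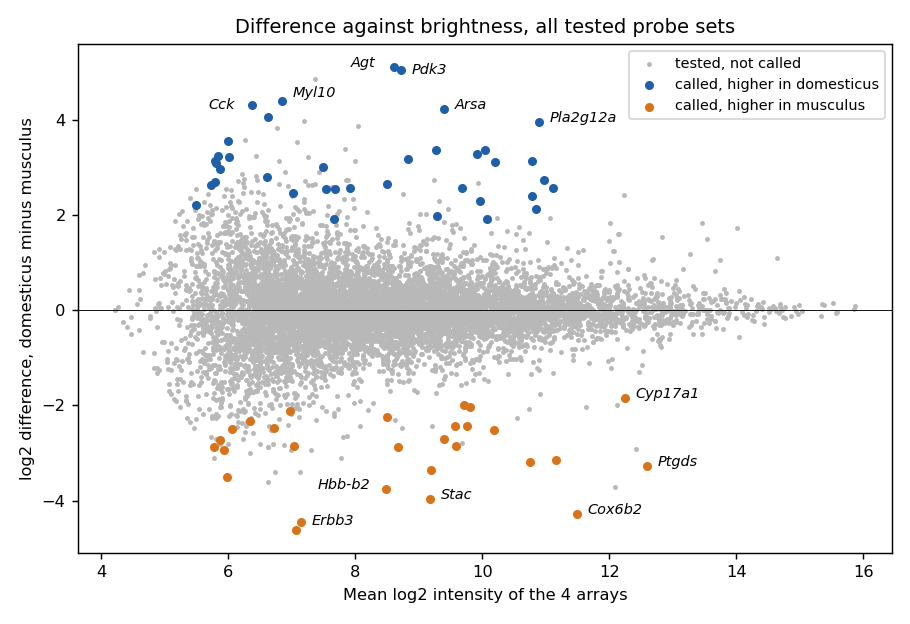
Log2 difference, domesticus minus musculus, against the mean log2 intensity of the 4 arrays, for the 8874 tested probe sets. Grey points were not called, blue points were called higher in domesticus (38) and orange points higher in musculus (28), and the called points occur over a wide range of brightness.

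The 4 arrays were close in scale, with median intensities of 151.2 to 182.6 and 7.93% to 13.1% of probe sets at the floor. Replicate arrays correlated at r = 0.916 in domesticus and 0.914 in musculus across probe sets, and arrays of different groups at 0.866 to 0.896. Within 2-fold of each other were 84.3% of probe sets between the domesticus arrays and 82.8% between the musculus arrays, against 75.5% to 80.2% between groups. The tissue label was borne by bright spermatid genes such as Prm1, which packs sperm DNA. Prm1 read 43400 and 52740 in domesticus and 55980 and 44770 in musculus. Not every spermatid gene was bright: the related gene Prm2 read 166.0 and 192.8 against 142.9 and 115.1 by its brightest tested probe set.

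The start-site windows of 5 called genes are shown because these genes carry the largest or the most connected differences described below: Agt, Pdk3 and Cck were higher in domesticus, Ptgds and Hsd3b1 in musculus. Each window runs from 250 bases before to 50 after the start in RefSeq's mouse assembly GRCm38.p6, 5′ to 3′ on the gene's strand, which is the minus strand for all 5. The windows lie at chr8:124569657-124569956 for Agt, chrX:93832101-93832400 for Pdk3, chr9:121495645-121495944 for Cck, chr2:25469700-25469999 for Ptgds and chr3:98859745-98860044 for Hsd3b1. Capitals mark a TATAAA or CCAAT match.
Agt: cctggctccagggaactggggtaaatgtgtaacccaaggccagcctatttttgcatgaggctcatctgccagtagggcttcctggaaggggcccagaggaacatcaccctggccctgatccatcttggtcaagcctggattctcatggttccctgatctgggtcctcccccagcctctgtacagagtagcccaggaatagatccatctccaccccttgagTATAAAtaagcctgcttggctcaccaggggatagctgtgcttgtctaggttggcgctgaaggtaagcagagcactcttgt
Pdk3: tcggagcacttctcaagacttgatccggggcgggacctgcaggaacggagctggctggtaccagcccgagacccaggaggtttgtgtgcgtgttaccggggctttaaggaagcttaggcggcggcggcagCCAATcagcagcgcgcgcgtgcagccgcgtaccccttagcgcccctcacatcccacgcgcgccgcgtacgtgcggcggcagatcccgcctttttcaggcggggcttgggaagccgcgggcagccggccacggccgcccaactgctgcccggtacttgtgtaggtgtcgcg
Cck: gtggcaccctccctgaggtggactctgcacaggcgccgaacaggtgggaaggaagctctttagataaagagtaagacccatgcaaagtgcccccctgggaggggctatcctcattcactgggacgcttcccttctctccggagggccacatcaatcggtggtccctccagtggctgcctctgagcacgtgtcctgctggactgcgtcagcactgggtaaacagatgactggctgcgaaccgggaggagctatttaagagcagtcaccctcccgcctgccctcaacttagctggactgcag
Ptgds: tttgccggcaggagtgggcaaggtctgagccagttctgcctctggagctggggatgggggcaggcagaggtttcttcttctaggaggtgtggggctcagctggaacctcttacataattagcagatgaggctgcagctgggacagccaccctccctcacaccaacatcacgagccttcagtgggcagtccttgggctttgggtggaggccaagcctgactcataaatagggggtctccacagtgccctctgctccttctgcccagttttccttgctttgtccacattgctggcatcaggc
Hsd3b1: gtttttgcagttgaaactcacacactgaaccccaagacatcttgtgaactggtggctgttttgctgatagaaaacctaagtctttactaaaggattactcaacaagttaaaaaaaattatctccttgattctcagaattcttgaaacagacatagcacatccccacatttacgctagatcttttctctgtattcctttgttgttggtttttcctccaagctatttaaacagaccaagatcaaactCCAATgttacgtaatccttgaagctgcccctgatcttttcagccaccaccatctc
The windows are of the reference assembly and not of the mice on the arrays. TATAAA lay 30 to 25 bases before the start of Agt, CCAAT 120 to 116 bases before that of Pdk3, and CCAAT 5 to 1 bases before that of Hsd3b1. Both strands were searched, and no letters of 1 motif overlapped another in these windows. Called genes were counted by gene, with a match in any window of the gene, whereas shares over all 32851 windows were counted by window. CCAAT occurred in 17 of the 31 genes with a window that were higher in domesticus (54.8%). It occurred in 8 of the 18 such genes higher in musculus (44.4%) and in 37.4% of all windows. TATAAA occurred in 3 and 0 of these genes, against 13.6% of all windows. CAAGGTCA, the extended site bound by the Leydig cell factor that Nr5a1 encodes, occurred in 1 and 0, against 1.56%, and TGACGTCA, the cyclic AMP response element, in 1 and 0, against 1.79%. For the Leydig cell genes discussed below, 8 of 14 had a window and 0 held CAAGGTCA.

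Among the genes called higher in domesticus, those of secreted factors are given first. Agt encodes angiotensinogen, the precursor of the angiotensin peptides. Its intensities were 2556 and 2064 in domesticus against 64.0 and 69.6 in musculus, 34.4-fold higher (limma, adjusted p = 0.0185). The musculus arrays thus sat near the low end of the scale while both domesticus arrays were well within its upper part. Cck, the gene of the gut and brain peptide cholecystokinin, read 388.6 and 352.3 in domesticus and lay at the floor on both musculus arrays, at least 19.8-fold higher (limma, adjusted p = 0.00407). Egf, which encodes epidermal growth factor, read 324.8 and 504.5 against 18.7 and 31.8, at least 16.6-fold higher (limma, adjusted p = 0.016). Pla2g12a encodes a secreted phospholipase A2, an enzyme that frees fatty acids from phospholipids. It was the brightest of this group, at 6351 and 8810 against 522.5 and 441.2, 15.6-fold higher in domesticus. Nxph1, a neurexin ligand of the nervous system, read 153.9 and 173.4 and was at the floor on both musculus arrays, at least 8.74-fold higher. Nmur1, a receptor for the peptide neuromedin U, was 5.87-fold higher and Defa23, a gut defensin, at least 4.64-fold higher.

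Of 6 tested genes of the renin-angiotensin system 4 were higher in domesticus and 2 in musculus, and only Agt was called. Over all 6581 genes tested, 0.805% were called. Ace, which encodes the angiotensin-converting enzyme and has a form made in spermatids, read 547.7 and 781.6 in domesticus and 3540 and 941.9 in musculus (limma, adjusted p = 0.409). Its musculus arrays differed from each other by more than the lower of them differed from domesticus. Mas1, a receptor for an angiotensin fragment, read 1084 and 1261 against 646.0 and 529.4 (adjusted p = 0.261).

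Called genes with roles in mitochondria, lysosomes and metabolism are described next. Pdk3, on the X chromosome, encodes a kinase that switches off pyruvate dehydrogenase. It read 2223 and 2654 in domesticus and 66.9 and 80.8 in musculus, 33.0-fold apart, with a standard error of 0.26 on the log2 scale (limma, adjusted p = 0.00407). Arsa, the lysosomal arylsulfatase that degrades sulfatides and is carried by the sperm acrosome too, read 3114 and 2738 against 172.2 and 140.2, 18.8-fold higher (limma, adjusted p = 0.00677), while a dimmer probe set of Arsa read 106.0 against 81.2, 1.31-fold (adjusted p = 0.843). Mff, which recruits the machinery of mitochondrial fission, read 2905 and 3916 against 438.7 and 246.6. Lias, which makes the lipoic acid cofactor of pyruvate dehydrogenase and related enzymes, was 5.90-fold higher, and Isca1, an assembly factor for iron-sulphur clusters, 4.88-fold higher. Adsl, an enzyme of purine synthesis, was 5.83-fold higher and the phosphatase gene Phospho2 4.38-fold higher. None of these genes had overlapping groups, which the rule for naming genes required.

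Pdk3 belongs to the genes of germ cell energy metabolism, by which spermatocytes and sperm use lactate and glucose. Of 18 tested genes 13 were higher in domesticus and 5 in musculus, with a median log2 difference of 0.16 against -0.02 over all 6581 genes tested. Only Pdk3 was called, against 53 genes or 0.805% of all genes, each gene being read here from its brightest probe set. The testis form of a pyruvate dehydrogenase subunit, Pdha2, read 4554 and 6160 against 5065 and 5642. Its partner Pdhb read 4008 and 6130 against 2462 and 3209 (limma, adjusted p = 0.454). Ldhc, the lactate dehydrogenase of spermatocytes and sperm, read 30880 and 32410 against 31310 and 29090, and these groups overlapped. Pdk1, another kinase of the same enzyme, read 248.5 and 330.0 against 194.2 and 156.8 (limma, adjusted p = 0.532).

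Alcohol and aldehyde dehydrogenases, which handle retinol and reactive aldehydes, gave 2 called genes of 12 tested, with 6 genes higher in each group, where 0.805% of all genes were called. Adh4 read 142.7 and 220.6 in domesticus and was at the floor on both musculus arrays, at least 9.49-fold higher. Aldh9a1 read 439.5 and 600.3 against 54.0 and 75.8, 8.03-fold higher (limma, adjusted p = 0.0289). Aldh2, the mitochondrial enzyme that clears acetaldehyde, was called 3.79-fold higher in domesticus by its dimmest tested probe set alone. Its 2 brighter probe sets read 888.2 and 970.8 in domesticus against 1102 and 1131 in musculus as geometric means, which is the opposite direction, and neither was called. The difference in Aldh2 thus depends on the probe set read.

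Genes of contractile and cytoskeletal proteins appeared in both directions. Myl10, a myosin light chain, read 546.4 and 510.0 in domesticus and 29.2 and 21.3 in musculus, 21.2-fold higher (limma, adjusted p = 0.00452). Calml4, a calmodulin relative, read 147.3 and 260.9 against 22.8 and 19.6, a 9.27-fold difference. Zfp185, an X-linked gene of an actin-associated LIM protein, read 225.9 and 214.5 and was at the floor on both musculus arrays, at least 11.8-fold higher. The adhesion gene Ctnna2, an alpha catenin of neurons, was at least 8.50-fold higher in domesticus by its called probe set, while its other 2 probe sets differed by 1.27-fold and 1.26-fold. Myh7, a myosin heavy chain of heart and slow muscle, went the other way, at 175.8 and 157.6 in domesticus against 710.0 and 878.2 in musculus, 4.74-fold. A dimmer probe set of Myh7 was 1.34-fold higher in domesticus and was not called. Pdlim7, a muscle LIM protein, read 18.7 and 21.9 against 197.6 and 111.5, at least 7.33-fold higher in musculus. Its other tested probe sets read 178.1 against 265.5 and 172.9 against 92.53, 1 in each direction.

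Of 20 tested genes of striated muscle 10 were higher in each group. Myl10 and Myh7 were the called members, where 0.805% of all genes were called. Ckm, the muscle creatine kinase, read 21.0 and 47.4 in domesticus and 206.1 and 167.7 in musculus (limma, adjusted p = 0.138). Tnnt2, cardiac troponin T, read 47.1 and 18.7 against 160.7 and 231.8 (adjusted p = 0.16). Ckmt2 went the other way, at 1139 and 1247 against 530.2 and 556.9 (limma, adjusted p = 0.205). Apart by at least 2-fold without overlap were 2 genes of the list with domesticus higher and 3 with musculus higher. Tnnc1, the troponin C of slow and cardiac muscle, was at the floor on 3 of the 4 arrays and at 20.7 on the other. The part of muscle RNA in the Myh7 difference was not tested.

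Other genes called higher in domesticus have roles in RNA handling, membrane traffic and protein turnover. Cnbp, a nucleic acid binding protein that promotes translation, read 3266 and 2819 against 306.3 and 314.6, 9.78-fold higher by its called probe set. Its other probe sets showed 1.48-fold higher and 1.03-fold lower levels in domesticus. Srsf2, a splicing factor, read 4957 and 5832 against 717.3 and 1165, 5.88-fold higher, while another of its probe sets read 569.8 against 627.1. Fyttd1, an mRNA export adaptor, was 8.67-fold higher at 3765 and 3224 against 481.2 and 335.3. The translation factor gene Eif4b was at least 6.50-fold higher by a dim probe set, and a brighter one read 688.2 against 758.2. Zscan12, a zinc finger gene, was 6.30-fold higher.

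Snx4, a sorting nexin of endosomes, read 1361 and 1384 in domesticus and 126.2 and 181.7 in musculus, 9.06-fold apart (limma, adjusted p = 0.0335). Arcn1, a coat protein of Golgi vesicles, was 5.91-fold higher, and its other tested probe set read 115.4 against 100.9 (limma, adjusted p = 0.934). Tmed3, a cargo receptor of the same route, was 3.75-fold higher. The calls of Arcn1 and Tmed3 were lost after median centring, at limma adjusted p = 0.0522 and 0.0617. Tmem50b, a small membrane protein gene, read 2039 and 1948 against 299.1 and 124.8, with a second probe set at 70.7 against 73.56. Psma3, a subunit of the proteasome core, read 4710 and 5684 against 736.0 and 815.5, 6.68-fold higher. It was the only called gene of 24 proteasome subunits, whose median log2 difference was 0.03, 14 being higher in domesticus and 10 in musculus. Over all genes 0.805% were called. Psmd7, of the regulatory cap, came next at 2285 and 2523 against 615.6 and 929.5 (limma, adjusted p = 0.128). Dnajb2, a chaperone of the DnaJ family, read 4516 and 3608 against 762.3 and 770.8, 5.27-fold higher, and was the only called gene of 21 heat shock proteins. Prep, a peptidase of short peptides, was 7.85-fold higher, and Otud7b, a deubiquitinase, at least 6.20-fold higher. Atxn10, the gene of ataxin 10, read 5400 and 5051 against 569.0 and 631.5, 8.71-fold higher, and its second probe set read 215.8 against 195.1.

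**Figure D2:**
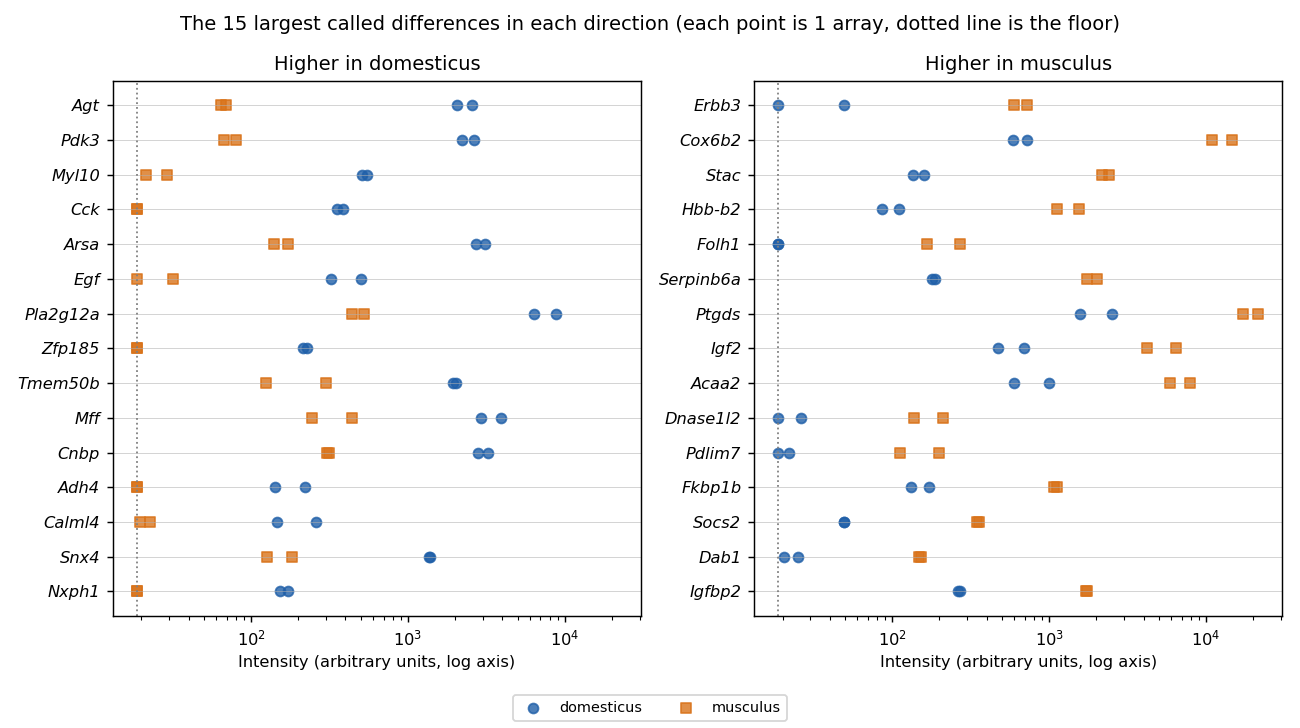
Intensities on each array (log axis, arbitrary units) for the 15 genes with the largest called differences in each direction, with domesticus as blue circles, musculus as orange squares and the floor of 18.7 as a dotted line. In every gene shown both arrays of 1 group lay beyond both arrays of the other, as the rule for naming genes required. Cck, Zfp185, Adh4, Nxph1 and Folh1 had 1 group at the floor on both arrays.

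Of the genes called higher in musculus, those with roles in growth factor signalling come first. Igf2, an imprinted gene that encodes insulin-like growth factor 2, read 691.0 and 470.0 in domesticus and 4215 and 6406 in musculus, 9.12-fold higher (limma, adjusted p = 0.0333). Igfbp2, a binding protein that carries these growth factors, read 262.7 and 268.5 against 1748 and 1721, 6.53-fold higher (limma, adjusted p = 0.016). In both genes the lower musculus array was more than 2-fold above the higher domesticus array. Kazald1, a secreted relative of the IGF binding proteins, was 5.63-fold higher, at 30.3 and 26.4 against 161.4 and 157.1. Socs2, a brake on growth hormone signalling, read 49.2 and 49.0 against 346.0 and 358.0, 7.17-fold higher (limma, adjusted p = 0.00989). Erbb3, a receptor for neuregulins, read 18.7 and 49.1 against 599.9 and 721.0, at least 21.7-fold higher (limma, adjusted p = 0.0204).

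Of 10 tested genes of the insulin-like growth factor system 8 were higher in musculus and 2 in domesticus, and Igf2 and Igfbp2 were called. Over all 6581 genes 3388 were higher in musculus and 0.805% were called. The median log2 difference was -0.21 against -0.02 over all genes. Igfbp1 read 69.7 and 18.7 against 97.3 and 109.2, and Igf2r, the receptor that clears Igf2, read 212.1 and 200.2 against 209.1 and 200.6. Among 14 imprinted genes, which are expressed from 1 parental copy, 9 were higher in musculus and Igf2 alone was called. The noncoding RNA gene Meg3 was next, at 25.5 and 41.8 against 132.6 and 174.9 (limma, adjusted p = 0.0835), while Dlk1 of the same imprinted cluster read 491.6 and 289.2 against 266.7 and 173.7.

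Steroid hormone synthesis was higher in musculus in most of its measured genes. Cyp17a1, the enzyme that converts progestins to androgens, read 2508 and 2616 in domesticus and 8656 and 9709 in musculus, 3.58-fold higher (limma, adjusted p = 0.0422). Hsd3b1, which makes progesterone from pregnenolone, read 351.9 and 504.6 against 1476 and 1885, 3.96-fold higher (limma, adjusted p = 0.0493). Both p-values lay just under the threshold, and both calls were lost after median centring of the arrays (limma, adjusted p = 0.0731 for Cyp17a1 and 0.0833 for Hsd3b1). A dimmer probe set of Hsd3b1 pointed the same way, at 31.6 against 161.3 as geometric means (adjusted p = 0.344). That of Cyp17a1 pointed the other way, at 172.0 against 102.2 (adjusted p = 0.827), and its musculus arrays read 40.2 and 259.8.

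Of 14 tested Leydig cell genes of this pathway 12 were higher in musculus and 2 in domesticus. Called were 2 of the 14, where 0.805% of all genes were called. The median log2 difference of the 14 was -0.70, a 1.62-fold difference. In 5 of them the groups did not overlap and lay at least 2-fold apart with musculus higher, where 5.53% of all genes did so. Cyp11a1, the enzyme that starts the pathway by cleaving the cholesterol side chain, read 711.0 and 572.6 against 1956 and 1530 (limma, adjusted p = 0.366). Fdx1, its electron carrier, read 2233 and 3495 against 4399 and 7812. Insl3, the peptide hormone of Leydig cells, read 87.9 and 27.4 against 219.2 and 89.2, and its groups all but met. Nr5a1, the nuclear receptor that drives steroidogenic genes, read 2515 and 2391 against 4425 and 3939 (adjusted p = 0.277), without overlap but under 2-fold. Star, which brings cholesterol into mitochondria, read 351.7 and 437.3 against 593.9 and 620.7. The exceptions were Hsd3b6, at 339.5 and 303.7 against 237.7 and 207.0, and Cyb5a, at 627.2 and 785.2 against 551.0 and 697.8, whose groups overlapped.

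Summed over the 14 genes, intensities were 12870 and 13940 in domesticus and 27160 and 29970 in musculus. The castaneus arrays summed to 14110 and 13420 and the ssp arrays to 11010 and 12190, so that musculus stood apart in this sum. Bright genes such as Cyp17a1 weigh most in it, and single members need not follow it. The median kept its sign when any 1 of the 4 arrays was left out. Upstream, of 14 genes of cholesterol synthesis 9 were higher in musculus, with a median log2 difference of -0.27. None was called, where 0.805% of all genes were. Mvd read 55.3 and 21.1 against 206.0 and 278.9 (limma, adjusted p = 0.0835), and Dhcr7, the last step of the pathway, 177.5 and 159.4 against 415.7 and 344.7. Fdft1, the squalene synthase, read 7052 and 8780 against 7752 and 7949.

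Ptgds and Acaa2, both enzymes of lipid metabolism, were called higher in musculus. Ptgds makes prostaglandin D2 and is secreted into the fluids of the male tract. It read 1567 and 2502 in domesticus and 17110 and 21600 in musculus, 9.71-fold higher (limma, adjusted p = 0.0204). Both of its other probe sets pointed the same way, at 2220 against 8884 (adjusted p = 0.0594) and 3623 against 8920 (adjusted p = 0.261). Acaa2, the last enzyme of mitochondrial fatty acid oxidation, read 601.2 and 996.2 against 5894 and 7961, 8.85-fold higher. Of 8 tested genes of prostaglandin synthesis Ptgds and Pla2g12a were called, in opposite directions, where 0.805% of all genes were called. Ptgis, the prostacyclin synthase, read 375.4 and 288.2 against 721.3 and 503.9 (adjusted p = 0.378), and Ptges, a prostaglandin E synthase, read 224.6 and 199.0 against 150.2 and 134.0. Ptgds is a marker of the epididymis, the duct next to the testis, as well. Of the other markers of that duct, Gpx5 read 46.3 and 120.7 against 108.7 and 34.7 and Lcn5 79.3 and 65.1 against 54.6 and 129.8, with overlapping groups.

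Most measured genes of red blood cells were higher in musculus. Hbb-b2, a beta chain of adult haemoglobin, read 86.3 and 110.0 in domesticus and 1124 and 1547 in musculus, 13.5-fold higher (limma, adjusted p = 0.0202). Hba-a1, an alpha chain, read 2923 and 1364 against 13330 and 16970 (adjusted p = 0.188), and Alas2, the haem enzyme of red cell precursors, 224.3 and 194.0 against 641.7 and 711.8 (adjusted p = 0.32). Haemoglobin genes are near-identical copies, so their probe sets may share transcripts. Of 7 tested blood genes 5 were higher in musculus, with Hbb-b2 called (0.805% of all genes) and 3 genes apart by at least 2-fold with musculus higher (5.53% of all genes). Car2, a carbonic anhydrase, was higher in domesticus at 426.4 and 331.3 against 187.2 and 298.9, as was the erythropoietin receptor gene Epor at 193.2 and 48.5 against 73.0 and 69.3. Klf1, a red cell transcription factor counted with musculus, was at the floor on 1 array of each group, at 72.9 and 18.7 against 300.7 and 18.7. Their summed intensities were 3949 and 2085 in domesticus and 15690 and 19640 in musculus, while the anion exchanger gene Slc4a1 of red cells stayed between 18.7 and 31.3. The median log2 difference was -1.02, but it was -0.24 without domesticus replicate 2 and -0.27 without musculus replicate 1.

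Macrophage and complement genes were measured beside these since macrophages lie among the Leydig cells. Of 14 tested genes 12 were higher in musculus and none was called, where 0.805% of all genes were called. Their median log2 difference was -0.47, with summed intensities of 3876 and 3945 against 5633 and 4928. C1qc read 439.9 and 349.6 against 923.7 and 982.0 (limma, adjusted p = 0.29), whereas Mpeg1, perforin 2, read 381.0 and 486.8 against 132.7 and 114.7 (adjusted p = 0.16). Lst1, a gene of white blood cells, was called 5.57-fold higher in musculus. Endothelial genes were mixed, 4 of 9 being higher in domesticus, with a median log2 difference of -0.44. Vwf, the von Willebrand factor, read 310.2 and 288.1 against 641.8 and 798.4. Blood, macrophage and Leydig cell genes were thus all higher in musculus in most members, and the part of blood or interstitial tissue in the called differences was not tested.

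Cox6b2, the testis form of a cytochrome c oxidase subunit, showed how far probe sets of 1 gene could differ. Its called probe set read 722.0 and 592.3 in domesticus and 14580 and 11000 in musculus, 19.4-fold higher (limma, adjusted p = 0.0155). A brighter probe set of Cox6b2 read 20530 and 19540 against 25330 and 23630 (adjusted p = 0.74), and another read 1108 against 1134 as geometric means. Romo1, a regulator of reactive oxygen in mitochondria, was 5.76-fold higher in musculus by 1 probe set and 2.73-fold by the other, at 408.2 against 1114. Among 23 genes of the respiratory chain none was called, where 0.805% of all genes were called, and the median log2 difference was -0.09.

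The remaining genes higher in musculus had varied roles. Stac, an adaptor of calcium channels, read 136.3 and 158.5 in domesticus and 2413 and 2160 in musculus, 15.5-fold higher (limma, adjusted p = 0.00452). Serpinb6a, an intracellular protease inhibitor, read 187.1 and 179.0 against 1738 and 2027, 10.3-fold higher (limma, adjusted p = 0.00764). It was the only called gene of 12 serpins and kallikreins, where 0.805% of all genes were called. Klk1b1, a kallikrein protease, ran the other way at 5517 and 7806 against 2314 and 3287 (adjusted p = 0.207). Folh1, folate hydrolase, was at the floor on both domesticus arrays and read 270.4 and 166.4 in musculus, at least 11.3-fold higher.
Fkbp1b, which stabilises calcium release channels, read 172.4 and 131.5 against 1077 and 1130, a 7.33-fold difference. Dnase1l2, a nuclease, read 26.2 and 18.7 against 210.2 and 136.7, and Dab1, an adaptor of reelin signalling, 20.4 and 25.2 against 149.0 and 151.5. The domesticus values of both genes lay close to the floor. Mfap5, of elastic microfibrils, was 5.03-fold higher and its second probe set 2.25-fold. Qrich1 was 5.43-fold higher, Tbc1d15, a regulator of Rab proteins, 5.41-fold and Ap5s1, of an adaptor complex for vesicles, 4.32-fold. A second probe set of Tbc1d15 read 485.0 against 426.0, with domesticus the higher.

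Lists of germ cell and Sertoli cell genes held no called gene. Over all genes 0.805% were called and 11.8% were apart by 2-fold without overlap. With a called share that low, lists this short can hold none. Elongating spermatid genes, such as Prm1 above and Tnp1 at 26540 and 30630 against 28280 and 26480, gave 0 called and 0 apart by at least 2-fold among 20, with a median log2 difference of -0.03. Prm3 differed the most, at 17650 and 17060 against 7838 and 12240 (limma, adjusted p = 0.335). Of 14 round spermatid genes 10 were higher in domesticus, none being 2-fold apart, and the median was 0.19. Of 11 spermatocyte genes 7 were higher in domesticus with a median of 0.22, and the recombinase gene Dmc1 was the only one apart by 2-fold, at 174.2 and 103.4 against 35.1 and 93.7. Hspa2, the chaperone of spermatocytes, read 4543 and 4305 against 7772 and 8202 (adjusted p = 0.205). Of 8 genes of spermatogonia 6 were higher in musculus, led by Zbtb16 at 61.5 and 47.4 against 171.7 and 121.8, and the median was -0.17. Cox6b2 stands in the elongating spermatid list by its brightest probe set, which was not called.

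Of 19 Sertoli cell genes 13 were higher in domesticus, none was called and the median log2 difference was 0.18, or -0.08 without musculus replicate 2. Aard read 3504 and 4689 against 1495 and 1803, Inha, the inhibin alpha chain, 1317 and 1138 against 678.7 and 514.7, and Wt1, a transcription factor, 266.0 and 368.3 against 213.5 and 84.1. These 3 were apart by at least 2-fold with domesticus higher, as were 6.26% of all genes. Clu, an abundant secreted protein, read 6722 and 6040 against 7062 and 6912. Of 13 genes of peritubular myoid cells and fibroblasts 6 were higher in domesticus, with a median of -0.01 and Col3a1 in front at 173.0 and 128.5 against 87.1 and 62.3. Over all genes 776, or 11.8%, were 2-fold apart without overlap.

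**Figure D3:**
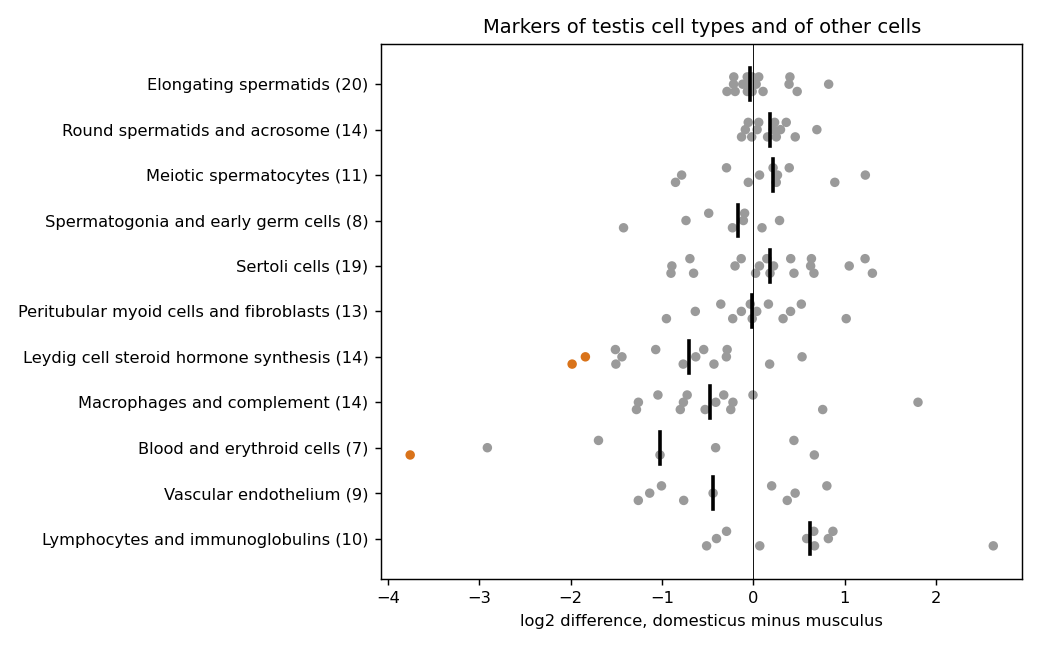
Log2 difference, domesticus minus musculus, of each tested gene of 11 marker lists, with the number of genes in parentheses and a black bar at each list's median. Orange points were called, and the Leydig, macrophage and blood lists lie mostly below 0 while the spermatid and spermatocyte lists lie close to 0.

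Where a called gene had a second tested probe set, the sets often differed in size. Probe sets that failed the filter are not counted here, such as a further one each of Erbb3, Folh1, Igf2 and Stac. Of 60 called genes 40 had no other tested probe set. The other 20 had 26 further probe sets, of which 16 pointed the same way, 7 of these by at least 2-fold, and none was called. The 7 belonged to Adh4, Hsd3b1, Mfap5, Pla2g12a, Ptgds and Romo1, Ptgds having 2. Adh4's second probe set read 189.5 against 29.65 (limma, adjusted p = 0.0943) and that of Pla2g12a 220.0 against 109.8. Opposite directions occurred in Aldh2, Cnbp, Cyp17a1, Eif4b, Myh7, Pdlim7, Srsf2, Tbc1d15 and Tmem50b, although in Cnbp and Pdlim7 for 1 of 2 further sets only. For comparison, over the 1170 genes with 2 or more tested probe sets, 428 pairs had a first set that was 2-fold apart, and in 277 of them (64.7%) the second pointed the same way. Identifiers with a suffix, which in the manufacturer's naming marks probes shared with similar transcripts or chosen under relaxed rules, made up 22 of the 66 called probe sets (33.3%) and 1814 of those tested (20.4%). Why probe sets of a gene differed was not tested.

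**Figure D4:**
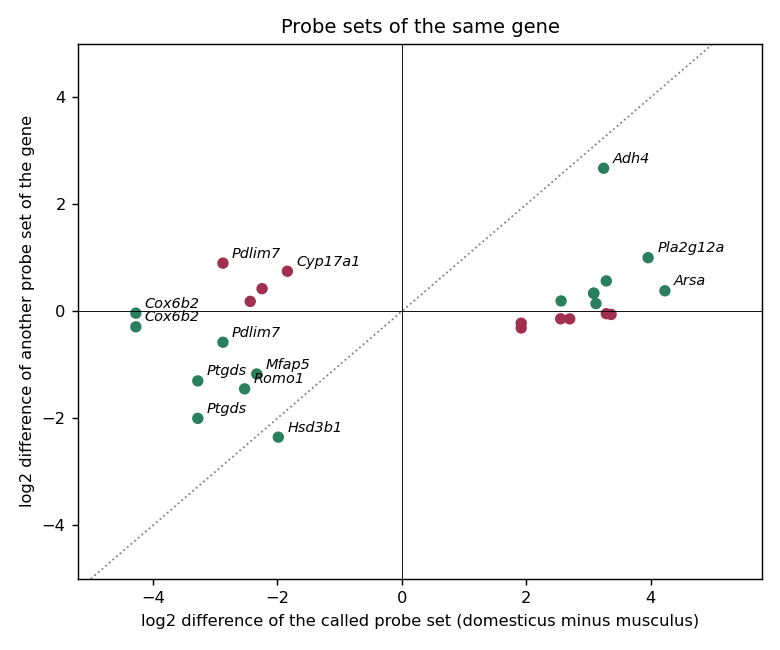
Log2 difference of each further tested probe set against that of the called probe set of the same gene (26 points, 20 genes), green where both point the same way and red where they do not, with equality as a dotted line. All but 1 of the green points lie nearer to 0 than the dotted line, and the exception is Hsd3b1.

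The castaneus and ssp means of each called probe set were placed nearer to 1 or the other of the pair on the log2 scale. Nearer does not always mean that 1 group stood apart. With musculus at 0 and domesticus at 1, Mff lay at 0.52 in castaneus and 0.547 in ssp, and Igfbp2 at 0.435 and 0.489. Of the 38 probe sets higher in domesticus, castaneus and ssp were both nearer the domesticus level in 18 (47.4%) and both nearer the musculus level in 13 (34.2%). Of the 28 higher in musculus, both were nearer domesticus in 16 (57.1%) and both nearer musculus in 7. Among the 577 probe sets higher in domesticus that were apart by 2-fold but not called, both were nearer domesticus in 222 (38.5%) and nearer musculus in 143 (24.8%). Among the 492 such probe sets higher in musculus, both were nearer domesticus in 141 (28.7%) and nearer musculus in 167 (33.9%). These shares are descriptions and were not tested against each other.

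Agt, Cck and Pla2g12a were high in domesticus alone: Agt averaged 74.27 in castaneus and 50.14 in ssp, and Pla2g12a 728.3 and 639.2. Pdk3, Myl10 and Atxn10 were low in musculus alone, with Pdk3 at 1767 in castaneus and 2398 in ssp and Atxn10 at 5917 and 4954. Ptgds, Igf2 and Fkbp1b were high in musculus alone, with castaneus and ssp averages of 1143 and 1307 for Ptgds and 406.2 and 608.4 for Igf2. The called probe set of Cox6b2 was low in domesticus alone, at 14750 in castaneus and 8739 in ssp. A few genes split the other groups: Stac averaged 236.4 in castaneus but 2433 in ssp, and Egf 220.6 in castaneus but 28.08 in ssp.

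**Figure D5:**
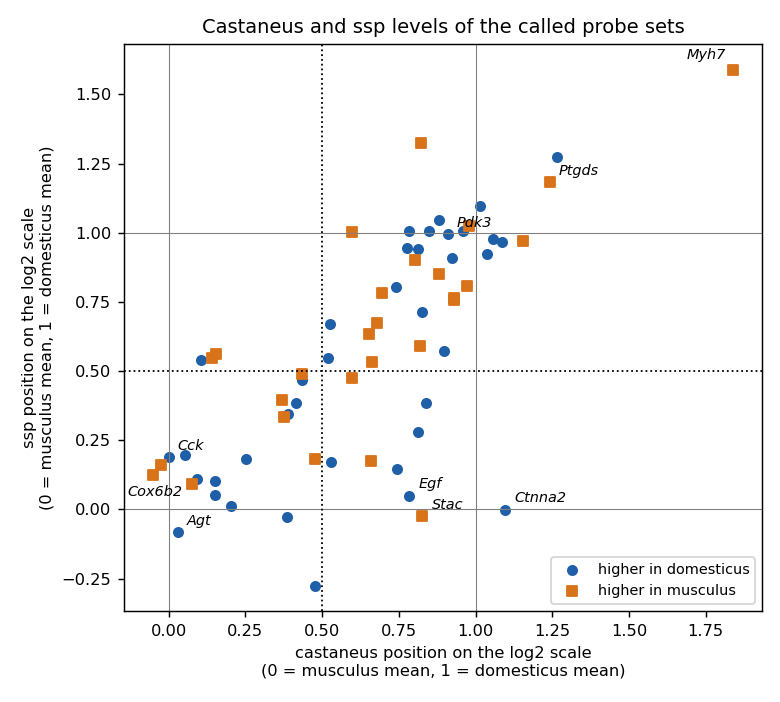
Position of the castaneus (horizontal) and ssp (vertical) mean of each called probe set on the log2 scale between the musculus mean, at 0, and the domesticus mean, at 1, with dotted lines midway between the means. Blue circles were higher in domesticus and orange squares higher in musculus, with Agt and Cck near the musculus corner and Pdk3 near the domesticus corner.

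By chromosome, 2 of 216 tested X-linked probe sets were called (0.926%), those of Pdk3 and Zfp185, against 58 of 7714 autosomal ones (0.752%). Apart by 2-fold were 26 X-linked probe sets and 966 autosomal ones, the latter being 12.5%. Of 4 tested Y-linked genes 0 were called in limma and 0 were apart by 2-fold, with Eif2s3y at 456.4 and 527.2 against 706.6 and 623.3.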

How the data were processed

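Affymetrix expression arrays of testis total RNA were used, per the labels. The authors deposited linear intensities, 1 for each of 12422 probe sets on each array. Not given in the sources used here are the summary method, its version and the scaling. The mean of each of the 8 arrays after trimming 2% at each end was 495.6 to 496.7, so no further scaling was done. Intensities below the 10th percentile of all values (18.7) were raised to it and log2 was taken. The filter kept probe sets at or above the 40th percentile in 2 or more of the 8 arrays. The number of arrays limits the precision.

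The test was limma's (version 3.58.1, R 4.3.3, lmFit and eBayes), with 1 mean per group over all 8 arrays (4 residual and 2.34 prior degrees of freedom, prior SD 0.36 on the log2 scale). Symbols came from the platform annotation updated through the Entrez number to RefSeq genes of GRCm38.p6: 10833 probe sets had 1 symbol, 396 several and 1193 none, and 10817 matched. Probe sets with several symbols or none were left unnamed. The rule named called genes whose groups did not overlap, which all 60 met, with array values for the 15 largest in each direction. It also named the called and the 2 most different members of lists, and other probe sets of a called gene. Of these probe sets only the tested ones are given. Further genes with array values were chosen after their values were seen. A list's gene was read from its probe set with the highest mean. The members, the gene lists and the rule were chosen with earlier results of these data known, so counts over a list are descriptions. The promoter motifs other than the site of the Nr5a1 factor were added after the data were seen.

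The fit was tested on simulated normal values of 8874 probe sets with the moderated spread of the 8-array fit, without floor or filter. It recovered 50% of 4-fold, 80% of 8-fold, 92% of 16-fold and 96% of 32-fold changes and called 11 unchanged probe sets. These shares hold for that setting only. Alternatives were other scalings, floors, filters, variance models, arrays in the fit, the replicate number as a block, and leaving out each array. The labels do not say that replicate numbers pair arrays across groups.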

Additional observations from a re-analysis of the deposited data

How the results depend on the processing

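The count of called probe sets, 66, moved with the processing. It was 64 after median centring, 58 after quantile normalization, 86 with the floor at the 20th percentile and 61 with no floor. Median centring ended the calls of 7 of the 60 named genes (Aldh2, Arcn1, Cyp17a1, Hsd3b1, Nmur1, Romo1 and Tmed3) and quantile normalization those of 10, among them Hsd3b1, Arcn1, Nmur1 and Aldh2. It was 29 with no filter on dim probe sets, 129 with the filter at the 60th percentile, 175 with trended and robust variance and 29 when tested against a 1.5-fold change. With only the 4 arrays of the pair limma called 0 (1093 at an unadjusted p under 0.05), and 24 when floor and filter came from those arrays, a setting chosen after seeing the data. Leaving out 1 array at a time gave 0 to 55. With the replicate number as a block the count was 43, of which 40 were among the 66. It ended the calls of 22 of the 60 named genes, among them Igf2 and Cyp17a1 (limma, adjusted p = 0.077 for both), Hsd3b1 and Kazald1 (0.0772 for both) and Erbb3 (0.0513). The labels do not pair the arrays, and deviations of same-numbered arrays correlated at 0.105 between domesticus and musculus and at 0.026 to 0.171 over all pairs of groups. Every tested probe set of the 66 kept its direction in all of these settings. Leaving out an array could not reverse it, since the groups did not overlap. The filter, the variance model and the block leave the difference itself unchanged. The cause of the changed counts was not tested, apart from the smaller or larger number of probe sets and arrays that a setting leaves. Limits are that 5 called probe sets had a group at the floor on both arrays and 8 on 1 array, that 40 of 60 genes rest on 1 tested probe set, and that technical replicates carry no spread between animals. Medians of lists with few or dim genes also moved: lymphocyte genes went from 0.62 to 0.01 without musculus replicate 2.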

Other observations

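Several further gene groups held values that belong to none of the comparisons above. Of 10 lymphocyte and immunoglobulin genes 7 were higher in domesticus and none was called in limma, where 0.805% of all genes were called. The kappa chain gene Igkv6-23 led, at 181.5 and 877.4 in domesticus against 75.9 and 54.9 in musculus (adjusted p = 0.204). Of 17 genes of antigen presentation 11 were higher in domesticus and none was called, with H2-Ea, a class II chain, at 211.9 and 239.7 against 61.3 and 18.7 (limma, adjusted p = 0.193). B2m, the light chain of class I molecules, read 436.2 and 396.6 against 722.2 and 765.3. Of 8 interferon-induced genes 4 were higher in each group, and Gbp2, a guanylate-binding protein, read 134.9 and 58.7 against 20.2 and 32.2.

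Of 16 glutathione transferases 9 were higher in musculus and none was called in limma. Gstt1 read 325.7 and 288.1 in domesticus against 51.0 and 106.7, whereas the microsomal Mgst1 read 202.7 and 259.8 against 609.4 and 651.9 (limma, adjusted p = 0.113). Of 7 genes listed as t-complex genes 4 were higher in domesticus, counting Hils1, whose place in that list was not checked. Tcte2 read 2917 and 3301 against 1564 and 1672 (limma, adjusted p = 0.172). Of 15 ribosomal protein genes 9 were higher in musculus and none was apart by 2-fold. Of 10 Notch pathway genes 6 were higher in domesticus, again with none apart by 2-fold. Of 17 splicing factors 10 were higher in domesticus, and Srsf2 was the only called member, where 0.805% of all genes were called. Of 5 genes of adipose tissue 3 were higher in domesticus, and Lpl, lipoprotein lipase, read 56.3 and 25.6 against 97.9 and 82.5.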
